A study of Mus musculus with 6 samples.

Results

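The 35 interferon-stimulated genes described here were taken from the 34866 genes of an RNA-seq table of mouse intestinal adenomas. The group was chosen on the measured values of Ifit1, which differ between the libraries, so that the values of Ifit1 are given as a description with no test. All 35 genes were found in the table by their Ensembl identifiers, and all 35 had counts high enough to be among the 16536 genes tested. Adenomas had been excised from the intestines of C57BL/6J mice of 100 to 120 days that carry 1 of 2 truncating germline alleles of Apc, either Apc1322T/+ or ApcMin/+, with 3 libraries of each genotype. The truncation of ApcMin removes the function of the protein, whereas that of Apc1322T retains part of it, and the comparison asks how far the RNA profiles of these tumour models differ. As the alleles are truncations, the RNA level of Apc does not check the labels. A sample was usually pooled from several RNA extractions of a single mouse, and excised tissue holds stroma and immune cells beside the tumour epithelium. In such bulk tissue, fewer cells of a type and less RNA per cell cannot be told apart.

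Interferons are secreted proteins that alert cells to infection. Type I and type III interferons bind their receptors, activate the kinases Jak1 and Tyk2, and lead to the assembly of a factor with Stat2 and Irf9 that binds the interferon-stimulated response element (ISRE) of its target genes. Interferon-gamma acts on another element, the gamma-activated site (GAS). In the intestine, epithelial cells respond to type III interferon, and a low level of interferon-induced transcription is known from healthy tissue.

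To show the sequences through which these genes are known to respond, the promoter windows of RefSeq on GRCm38.p6 were searched for the ISRE core, GAAANNGAAA or its reverse complement TTTCNNTTTC. The windows reach from 250 bases before the first transcribed base to 50 bases after it, and 26 of the 35 genes were matched, with 31 windows. Each stretch below is given 5′ to 3′ on the strand of its gene and ends before the first transcribed base that RefSeq gives. Capitals mark the matches, which are the ISRE core except in Irf1, where they mark the GAS letters TTCNNNGAA. Ifit1 is shown since it chose the group, Ifit3 and Ifit3b since their reads are hard to separate, Isg15 and Oas3 since their levels are described in full, and Irf1 as the single stretch with GAS letters.
Ifit1: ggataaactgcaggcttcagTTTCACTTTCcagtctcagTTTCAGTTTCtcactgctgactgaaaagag
Ifit3: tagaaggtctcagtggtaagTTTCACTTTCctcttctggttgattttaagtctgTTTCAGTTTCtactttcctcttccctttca
Ifit3b: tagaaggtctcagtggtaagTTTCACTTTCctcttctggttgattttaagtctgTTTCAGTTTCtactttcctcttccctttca
Isg15: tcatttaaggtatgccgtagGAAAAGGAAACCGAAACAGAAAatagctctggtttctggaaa
Oas3: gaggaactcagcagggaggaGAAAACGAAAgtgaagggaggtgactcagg
Irf1: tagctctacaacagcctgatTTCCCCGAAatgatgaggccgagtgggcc
The Ifit1 stretch lies at chr19:34640765-34640833 on the plus strand, with matches that start 104 and 85 bases upstream. Those of Ifit3 (chr19:34583353-34583436) and Ifit3b (chr19:34607749-34607832) are on the same strand and have the same letters, although their matches start 156 and 122 bases upstream in Ifit3 and 188 and 154 bases upstream in Ifit3b. The Isg15 stretch (chr4:156200855-156200916, minus strand) holds 3 overlapping matches, and that of Oas3 (chr5:120777705-120777754, minus strand) a single match 75 bases upstream. The window of Gbp2 has an ISRE core 59 bases upstream of the RefSeq start at 142620663 of chromosome 3, but GENCODE places the start of the gene 61 bases further upstream, before the match, and no stretch is shown for it. The Irf1 stretch (chr11:53769904-53769952, plus strand) has its GAS letters 90 bases upstream.

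The ISRE core was found in 17 of the 31 windows (54.8%, exact 95% binomial interval 36.0 to 72.7), belonging to 16 genes. Over all 32851 windows of the table the share was 3.44%. The interval takes the windows of the group as independent and may be too narrow. The stretches of Ifit3 and Ifit3b have the same letters, and Trim30a has more than a single window. The GAS letters were in 6 of the 31 windows (19.4%), against 8.3% of all windows. No ISRE core was in the windows of Ifit2, Oasl1, Oasl2, Irf1, Irf7, Irf9, Ifi35, Ifi44, Xaf1 and Cmpk2, which says only that these letters are not in this window. Gbp2 and Gbp3, whose levels differ in order from those of most of the group, both held the ISRE core.

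The libraries held between 23132461 and 33518324 estimated counts, and 3 counts, taken as the smallest signal, correspond to between 0.0838 and 0.143 CPM, the counts relative to each normalised library size, a limit of counting error alone. Any pair of libraries differed far beyond sampling noise, with a chi-square of at least 23.3 per gene, so that all 6 were counted as separate samples. Such a check cannot tell whether the libraries of a genotype come from different mice. Epithelial markers were abundant in all 6 libraries, with Epcam between 10.81 and 11.41 log2 CPM. Levels below are log2 CPM with a prior count of 2. A negative log2 fold change denotes a lower level in ApcMin adenomas, and is given with its standard error (SE). Beyond the mouse that each sample comes from, nothing is stated on how the mice relate, and p-values measure the spread between these samples.

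The most prominent pattern of the group was that Apc1322T replicates 2 and 3 stood above the other libraries for most genes. As both are Apc1322T libraries, this order and a difference between the genotypes cannot be told apart. The counts that follow leave out Ifit1 and are descriptions, as the group was taken up for a difference between these libraries. Apc1322T replicates 2 and 3 held the 2 highest levels of 29 of the 34 genes (85.3%), which was the case for 20.2% of all tested genes. Apc1322T replicate 1 lay within the range of the ApcMin libraries for 23 of the 34 genes (67.6%, against 47.6% of all tested genes). It lay above that range for 3 and below it for 8 (4200 and 4465 of the 16536 tested genes). The highest level was in Apc1322T replicate 3 for 19 genes (55.9%, against 15.3% of all tested genes). It was in Apc1322T replicate 2 for 11 (32.4%, against 19.3%). The lowest level was in ApcMin replicate 3 for 22 of the 34 genes, and for 19.4% of all tested genes. After centring each gene on its mean, the median of the 34 genes was -0.41, 0.62 and 0.66 in Apc1322T replicates 1, 2 and 3. It was -0.23, -0.07 and -0.58 in ApcMin replicates 1, 2 and 3. Over all tested genes the same medians lay between -0.01 and 0.02. The 5 genes that did not follow this order were Ifit2, Rsad2, Mx1, Gbp2 and Gbp3.

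**Figure D1:**
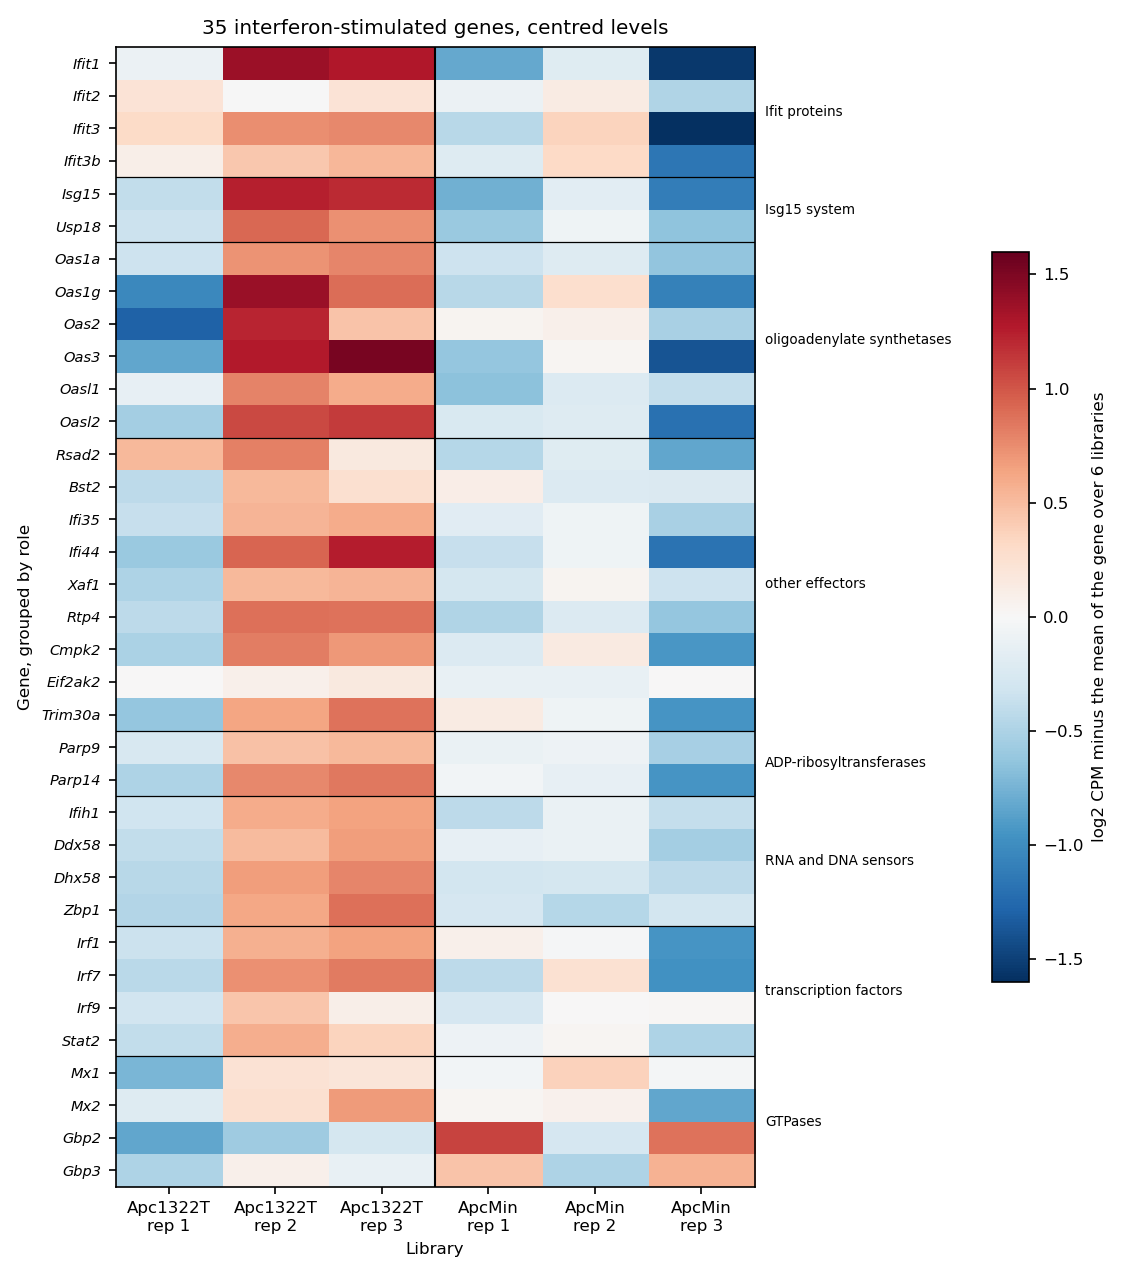
Level of each of the 35 genes (rows, grouped by role) in each library (columns), as log2 CPM minus the mean of the gene over the 6 libraries, red for higher and blue for lower. The columns of Apc1322T replicates 2 and 3 are red for most rows and hold the 2 highest levels of Ifit1 and of 29 other genes, whereas Gbp2 and Gbp3 in the bottom rows are highest in ApcMin libraries.

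Between the genotypes, 0 of the 34 genes other than Ifit1 passed an adjusted p under 0.01 (edgeR, 0% of all tested genes), and 0 passed 0.05 (0.00605% of all tested genes). Their adjusted p ranged from 0.257 to 0.832. Of the 34 genes, 31 had a log2 fold change below 0 and 3 above (Gbp2, Gbp3 and Mx1). The median was -0.66, against 0.02 over all tested genes. At an unadjusted p under 0.05, 8 genes were lower in ApcMin adenomas (7.60% of all tested genes) and 1 was higher (7.49%). DESeq2 likewise gave 0 genes at an adjusted p under 0.01 (1.11% of all genes with an adjusted p). It gave 4 at 0.05 (2.70%), namely Isg15, Oasl1, Rsad2 and Gbp2, and 19 at an unadjusted p under 0.05 (11.5%). With limma-voom 0 genes passed either adjusted threshold and 5 an unadjusted p under 0.05 (13.8%). The levels did not overlap between the genotypes for 2 genes that were higher in Apc1322T, Oasl1 and Rsad2 (9.96% of all tested genes were so), and for 1 that was higher in ApcMin, Gbp2 (11.0%).

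**Figure D2:**
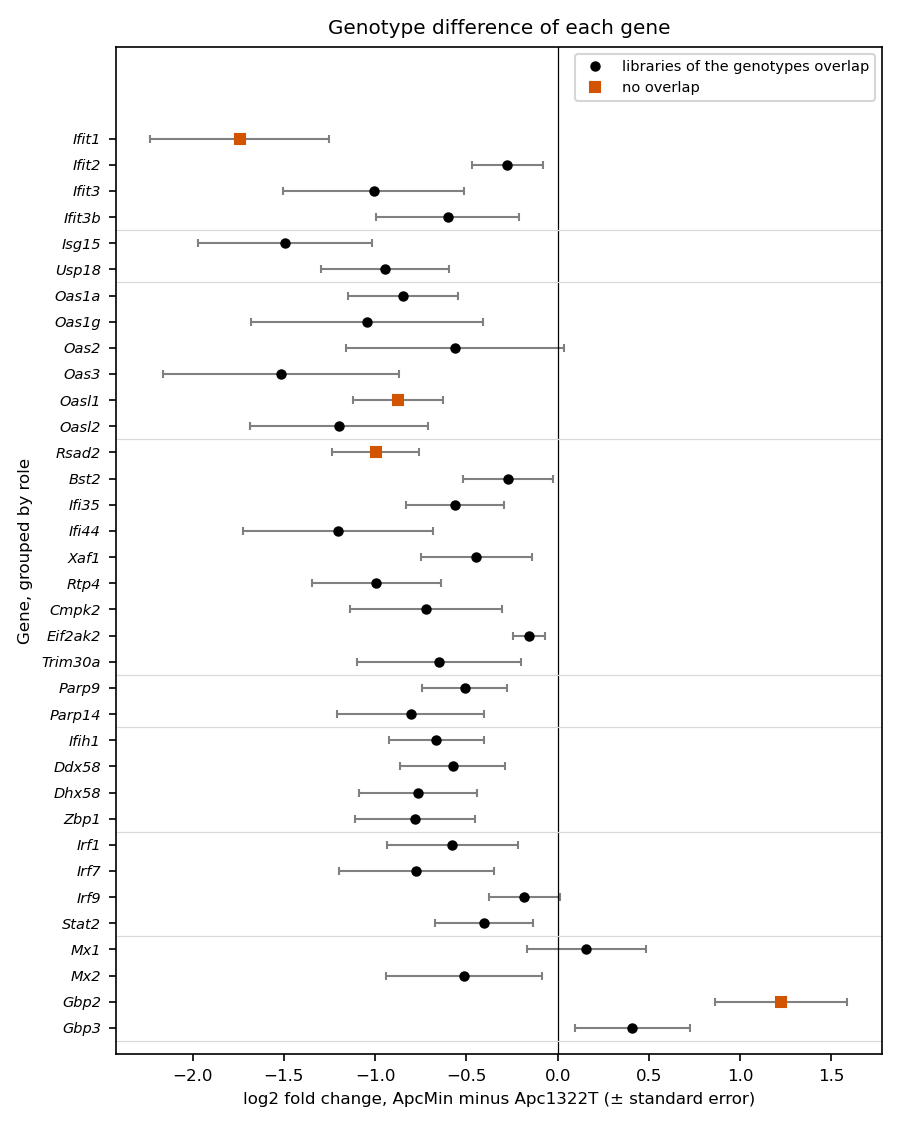
Log2 fold change of each gene, ApcMin minus Apc1322T, with its standard error, in the order of roles used for the heat map. Points lie left of 0 for 32 of the 35 genes, and squares mark the 4 whose libraries do not overlap between the genotypes (Ifit1, Oasl1, Rsad2 and Gbp2), of which Ifit1 chose the group.

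The spread within the genotypes was wide. The median SD of the 34 genes was 0.56 in Apc1322T and 0.32 in ApcMin adenomas, against 0.20 and 0.19 over all tested genes. Leaving out Apc1322T replicate 1 moved the comparison most. The log2 fold change then had a median of -0.98, both remaining Apc1322T libraries lay above all ApcMin libraries for 30 genes (23.1% of all tested genes), and 25 genes were lower at an unadjusted p under 0.05 (13.2% of all tested genes). In that fit 5 genes reached an adjusted p under 0.05, Oas1a, Oasl1, Ifih1, Zbp1 and Rtp4 (1.22% of all tested genes), and 0 reached 0.01. With any other library left out, 0 of the 34 genes reached 0.05. This library was singled out after its values were seen.

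The Ifit proteins bind foreign RNA and restrain its translation. Ifit1, on chromosome 19 from 34640871 to 34650009, had levels of 4.44, 5.89 and 5.81 in the Apc1322T libraries and of 3.71, 4.34 and 2.99 in the ApcMin libraries. Apc1322T replicates 2 and 3 were far above the rest, and Apc1322T replicate 1 was just above the highest ApcMin library. The estimated counts were 588, 1249 and 1283 in Apc1322T and 467, 512 and 249 in ApcMin adenomas, so that counting error is small beside this spread. The log2 fold change was -1.74 (SE 0.49), a level 3.34-fold higher in Apc1322T, and 7.48-fold lay between the highest and the lowest library. The 4 Ifit genes neighbour each other within a stretch of chromosome 19, yet did not vary alike. Ifit2 varied over a range of 0.71, with its highest level in Apc1322T replicate 1, and had a log2 fold change of -0.28 (SE 0.19). Ifit3 and Ifit3b were lowest in ApcMin replicate 3, at 1.64 and 0.67. Of the 50-base windows of Ifit3, 51.2% occur also in Ifit3b, so that how their counts are divided is uncertain.

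**Figure D3:**
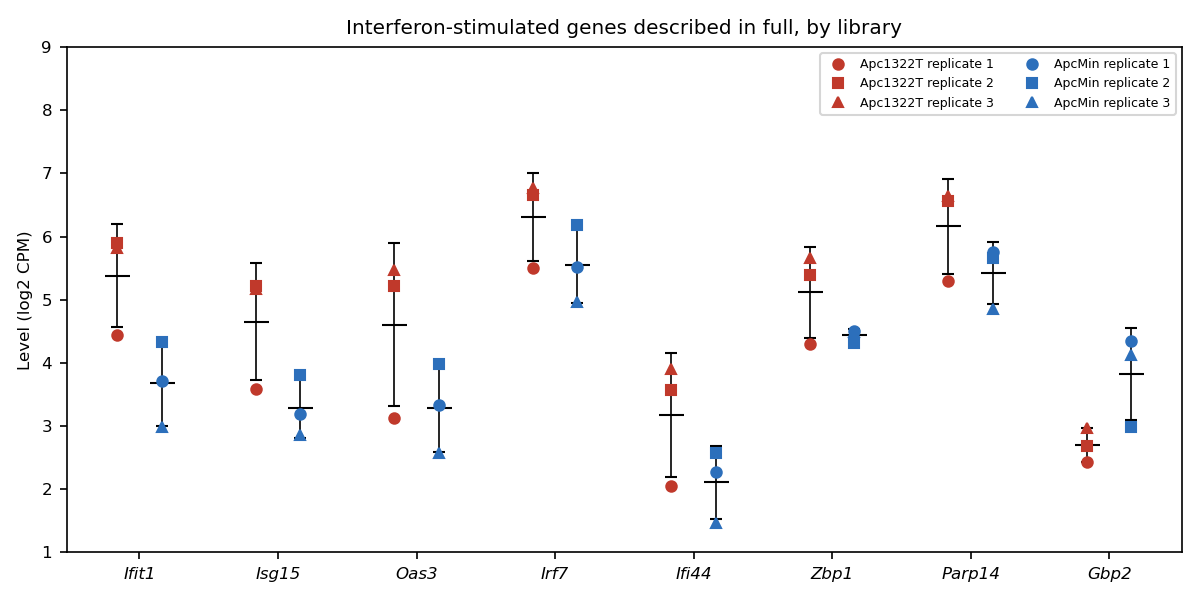
Level in log2 CPM of the 8 genes described in full, each the most variable of its role group, with Apc1322T libraries in red on the left and ApcMin libraries in blue on the right of each gene. Bars give the mean and SD of 3 libraries, and in 7 of the 8 genes the red square and triangle (Apc1322T replicates 2 and 3) lie above all other points, the exception being Gbp2.

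Isg15 is a ubiquitin-like protein that is conjugated to other proteins, and Usp18 is the protease that removes it and also dampens signalling from the type I receptor. Isg15 (chromosome 4, 156199424 to 156200818) had levels of 3.58, 5.21 and 5.17 in Apc1322T and of 3.19, 3.80 and 2.86 in ApcMin adenomas. Apc1322T replicate 1 lay below ApcMin replicate 2, so that the genotypes overlapped. The log2 fold change was -1.49 (SE 0.48, adjusted p = 0.287, edgeR), and it was -1.85 without Apc1322T replicate 1 (adjusted p = 0.0535). Over the alternatives for Isg15 the adjusted p ranged from 0.0247 with DESeq2 to 0.692 without Apc1322T replicate 2. For Usp18 the log2 fold change was -0.95 (SE 0.35, adjusted p = 0.311), with the same 2 libraries on top.

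The oligoadenylate synthetases make the second messenger that activates RNase L, and the Oasl proteins are their relatives. Apc1322T replicates 2 and 3 were the highest libraries for all 6 genes of this group, whose median log2 fold change was -0.96. Oas3 (chromosome 5, 120753098 to 120777661) had the widest range. Its levels were 3.12, 5.22 and 5.47 in Apc1322T and 3.33, 3.98 and 2.57 in ApcMin adenomas. Apc1322T replicate 1 lay below 2 of the 3 ApcMin libraries, while Apc1322T replicates 2 and 3 were far above all others. The log2 fold change was -1.51 (SE 0.65, adjusted p = 0.339). Oas2 had both its lowest level, 0.28, and its highest, 2.78, within Apc1322T, in replicates 1 and 2. Oasl1, which in mice restrains the translation of Irf7, was the single synthetase relative without overlap, with levels of 6.21, 7.13 and 6.93 in Apc1322T and of 5.68, 6.11 and 5.96 in ApcMin adenomas. Its log2 fold change was -0.88 (SE 0.25, adjusted p = 0.279). Oas1a shares 57.6% of its 50-base windows with Oas1g, so that the values of this pair are uncertain.

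Among the other effectors, all 9 genes had a log2 fold change below 0, with a median of -0.65. Ifi44 (chromosome 3, 151730922 to 151749960) varied most. Its levels were 2.05, 3.57 and 3.90 in Apc1322T and 2.28, 2.58 and 1.46 in ApcMin adenomas, and Apc1322T replicate 1 again lay among the ApcMin libraries. The log2 fold change was -1.20 (SE 0.52, adjusted p = 0.339). Rsad2, which encodes viperin, and Cmpk2, a nucleotide kinase, are neighbours on chromosome 12 but differed in order. Rsad2 had levels of 3.75, 4.05 and 3.40 in Apc1322T and of 2.78, 3.04 and 2.40 in ApcMin adenomas, with the smallest adjusted p of the group (0.257), and the fitted level was 1.99-fold higher in Apc1322T (SE 0.24 on the log2 scale). All 3 Apc1322T libraries lay above the ApcMin libraries, with Apc1322T replicate 3 the lowest of them. Cmpk2 was at 3.56, 4.89 and 4.76 in Apc1322T and at 3.85, 4.20 and 3.13 in ApcMin adenomas, with the 2 high libraries of the group on top. Rtp4, a receptor chaperone, had a log2 fold change of -0.99 (SE 0.35), and shared 11.6% of its windows with other genes. Smaller differences were measured for Trim30a (-0.65, SE 0.45), Ifi35 (-0.56, SE 0.27), Xaf1 (-0.45, SE 0.30) and Bst2, which encodes tetherin (-0.27, SE 0.25). Eif2ak2, the kinase PKR that halts translation upon binding double-stranded RNA, varied least of all 35 genes, with levels between 5.26 and 5.54 in the 6 libraries.

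Parp9 and Parp14, ADP-ribosyltransferase family members that neighbour each other on chromosome 16, were highest in the same 2 libraries. Parp14 (35832874 to 35871544) had levels of 5.30, 6.56 and 6.64 in Apc1322T and of 5.75, 5.66 and 4.86 in ApcMin adenomas. Apc1322T replicate 1 was below 2 of the 3 ApcMin libraries. The log2 fold changes were -0.81 for Parp14 (SE 0.40, adjusted p = 0.385) and -0.51 for Parp9 (SE 0.23, adjusted p = 0.357).

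The sensors of foreign nucleic acids followed the same order. Ifih1 (MDA5) and Ddx58 (RIG-I) recognise viral RNA, Dhx58 (LGP2) modulates them, and Zbp1 binds Z-form nucleic acids and can trigger necroptosis. Zbp1 (chromosome 2, 173206612 to 173218923) had levels of 4.30, 5.39 and 5.65 in Apc1322T and of 4.51, 4.31 and 4.48 in ApcMin adenomas. The ApcMin libraries were close together, Apc1322T replicate 1 was just below them, and the other Apc1322T libraries were well above. Its log2 fold change was -0.78 (SE 0.33, adjusted p = 0.334), and it was -1.09 (adjusted p = 0.0429) without Apc1322T replicate 1. The adjusted p of Zbp1 reached 0.714 without Apc1322T replicate 2. The log2 fold changes of Dhx58, Ifih1 and Ddx58 were -0.77 (SE 0.32), -0.66 (SE 0.26) and -0.57 (SE 0.29).

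Of the transcription factors, Stat2 and Irf9 are subunits of the factor that binds the ISRE, Irf7 amplifies the production of type I interferon, and Irf1 is induced by interferon-gamma. Irf7 (chromosome 7, 141262706 to 141266481) was at 5.50, 6.66 and 6.76 in Apc1322T and at 5.51, 6.18 and 4.96 in ApcMin adenomas. Apc1322T replicate 1 was level with ApcMin replicate 1, and the genotypes overlapped. Its log2 fold change was -0.77 (SE 0.42, adjusted p = 0.415). Irf1, whose stretch with GAS letters is shown above, had its highest levels in the same libraries, with a log2 fold change of -0.58 (SE 0.36). The differences were smaller for Stat2 (-0.40, SE 0.27) and Irf9 (-0.18, SE 0.20).

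Of the 4 GTPases, Mx2 alone shared the order of the libraries. Guanylate-binding proteins such as Gbp2 and Gbp3 act against intracellular pathogens and are strongly induced by interferon-gamma. Gbp2 (chromosome 3, 142620602 to 142638008) had levels of 2.43, 2.69 and 2.98 in Apc1322T and of 4.34, 2.99 and 4.13 in ApcMin adenomas. The groups did not overlap, although ApcMin replicate 2 was only just above Apc1322T replicate 3. The log2 fold change was 1.23 (SE 0.36, adjusted p = 0.279). Gbp3, its neighbour, was at 3.26, 2.31 and 3.36 in ApcMin adenomas, high in the same libraries as Gbp2, with a log2 fold change of 0.41 (SE 0.31, adjusted p = 0.536). The dynamin-like antiviral proteins Mx1 and Mx2 were scarce. Mx1, which is defective in C57BL/6 mice, had a log2 fold change of 0.16 (SE 0.33), and Mx2 had one of -0.51 (SE 0.43).

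Per kilobase of exon, the mean level over the 6 libraries was highest for Oasl1 (33.1 CPM per kb), Irf1 (30.5), Ifi35 (28.3) and Isg15 (25.3). It was lowest for Mx2 (0.262), Oas2 (0.748) and Mx1 (0.789). Ifit1, at 11.2 CPM per kb, was among the more abundant of the 35 genes.

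The likeness of other genes to Ifit1 was described by Pearson's r of log2 CPM over the 6 libraries, which differ in genotype, marker levels and depth at once. It is a description, since the values of Ifit1 chose the group. Among the 34 other genes r ran from -0.72 for Gbp2 to 0.98 for Isg15, with a median of 0.89. Gbp2 and Gbp3 (-0.43) alone were below 0. For 15 of the 34 genes r was above 0.9, as it was for 8.22% of the 13418 genes outside the group. Among the 10 of 13418 genes outside the group with the highest r, from 0.999 to 0.995, were Chmp5, Zc3h13, Pklr, Rab8a, Arf5, Cldn7, Tradd, Nectin3 and Irak4. All 10 were thus more like Ifit1 than any gene of the group was. Chmp5 belongs to the membrane-remodelling ESCRT machinery and Pklr is a pyruvate kinase. Cldn7 is a claudin of epithelial junctions and is on the list of epithelial markers used below. Tradd is an adaptor of tumour necrosis factor receptors and Irak4 a kinase of Toll-like receptor signalling. These 10 genes varied less than Ifit1, whose range was 2.90. Their ranges lay between 0.44 for Zc3h13 and 1.54 for Pklr.

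Markers of other cell types moved with the group in part, and their part in the result was not tested. Of the 9 epithelial markers, 8 were highest in Apc1322T replicates 2 and 3 (88.9%, against 85.3% of the 34 genes and 20.2% of all tested genes). The summed level of these markers ranged from 14748 to 18146 CPM in Apc1322T and from 11969 to 14119 CPM in ApcMin adenomas. Between the highest and lowest library this is 1.52-fold, against 2.36-fold for the median of the 34 genes other than Ifit1. The former is a sum to which the most abundant markers add most, so that these are unlike measures. Among single markers the range was widest for Krt20 and Vil1. Krt20 was at 10.84, 11.54 and 11.57 in Apc1322T and at 10.12, 10.92 and 10.48 in ApcMin adenomas. Vil1 was at 9.72, 10.51 and 10.64 in Apc1322T and at 9.83, 10.06 and 9.24 in ApcMin adenomas. Krt18 stayed between 10.08 and 10.29. All 9 epithelial markers had a log2 fold change below 0, and 0 passed an adjusted p under 0.01 (edgeR). At an unadjusted p under 0.05, 6 were lower in ApcMin (66.7%, against 7.60% of all tested genes). For 6 markers all Apc1322T libraries lay above all ApcMin libraries (9.96% of all tested genes were so). A scale relative to the summed epithelial markers in each library was added after the values were seen. On it, Apc1322T replicates 2 and 3 were on top for 20 of the 34 genes, against 3.57% of all tested genes. The scale lowers these 2 libraries alike for every gene, as the epithelial sum was highest there. Both shares fall for that reason, from 85.3% and 20.2%, and their contrast cannot be read as a correction for epithelial content. Of the 11 T and NK cell markers tested, 7 were highest in Apc1322T replicates 2 and 3 (63.6%, against 20.2% of all tested genes). Their sum was 29.5, 93.2 and 138 CPM in Apc1322T replicates 1, 2 and 3 and 58.6, 73.6 and 40.1 CPM in ApcMin replicates 1, 2 and 3. It was thus lowest in Apc1322T replicate 1 and highest in Apc1322T replicate 3. Of these markers none was at 0 in all libraries, and Gzma, a granzyme of cytotoxic cells, reached 6.16 log2 CPM.

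Macrophage markers went the other way, with 0 of 8 highest in those libraries. Over all tested genes that share was 20.2%, so that 0 on a list this short, here and below, is not far from it. The sum of the macrophage markers was 132, 97.3 and 117 CPM in Apc1322T replicates 1, 2 and 3, and 127 to 271 CPM in ApcMin adenomas. At an unadjusted p under 0.05 (edgeR), 6 of the 8 macrophage markers were higher in ApcMin (75%, against 7.49% of all tested genes). None was lower at that threshold, and 0 passed an adjusted p under 0.01. For fibroblast and smooth muscle markers (0 of 8) the sums were 1247, 525 and 777 CPM in Apc1322T, and 934 to 2554 CPM in ApcMin adenomas. Neutrophil markers (0 of 5) were at 33.9, 7.56 and 13.6 CPM in Apc1322T, and at 9.24 to 101 CPM in ApcMin adenomas. Endothelial markers (0 of 5) were at 162, 96.2 and 103 CPM in Apc1322T, and at 152 to 216 CPM in ApcMin adenomas. Apc1322T replicate 1, which stood apart from replicates 2 and 3 in the 34 genes, thus had the highest sums of these 4 lists within its genotype. ApcMin replicate 1, where Gbp2 was highest, had the highest sums of macrophage, fibroblast and neutrophil markers. Plasmacytoid dendritic cells, known as strong producers of type I interferon, had marker sums of 179 to 208 CPM in Apc1322T and 109 to 209 CPM in ApcMin adenomas, with 1 of 6 tested markers highest in the 2 libraries. Nearly all of this sum came from Klk1 and Ly6d, and the defining marker Siglech was at 0.39 log2 CPM or below. Sums of dendritic cell markers (0 of 6 tested, 11.7 to 16.6 and 15.3 to 19.2 CPM) and of B and plasma cell markers (0 of 5 tested, 376 to 514 and 268 to 936 CPM) did not follow the group.

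**Figure D4:**
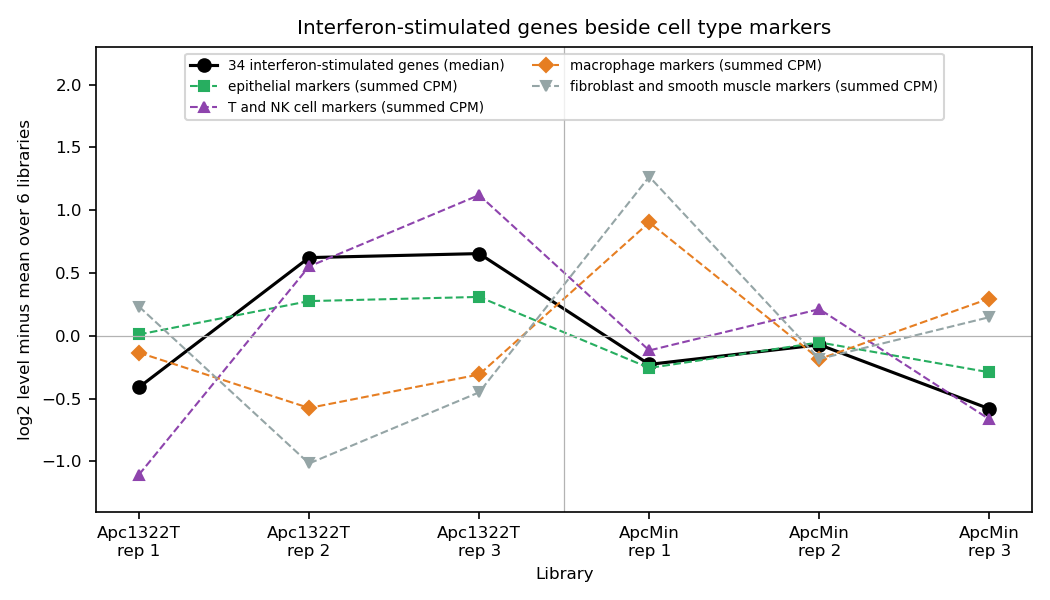
Median centred level of the 34 genes other than Ifit1 (black) and summed CPM of 4 marker lists on a log2 scale, each minus its mean over the 6 libraries, by library. The black line is highest in Apc1322T replicates 2 and 3 (0.62 and 0.66), where T and NK cell and epithelial markers are also highest, whereas macrophage and fibroblast markers peak in ApcMin replicate 1.

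The interferons themselves were hardly detectable at this depth. Of 21 interferon genes in the table, 16 had 0 counts in all 6 libraries, none passed the filter on low counts, and all together they had 17, 4 and 3 counts in Apc1322T and 20, 5 and 13 in ApcMin adenomas. Ifnb1 had a single count in ApcMin replicate 1, and Ifng had 0, 2 and 0 counts in Apc1322T and 1, 1 and 2 in ApcMin adenomas. Most of the counts of ApcMin replicate 1 and Apc1322T replicate 1 came from Ifnz, with 17 in each.

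The interferon receptors were all expressed. Ifnar1 and Ifnar2, the subunits of the type I receptor, had log2 fold changes of 0.03 (SE 0.09) and 0.04 (SE 0.10). Ifnlr1 and Il10rb, which form the type III receptor, had -0.13 (SE 0.25) and -0.42 (SE 0.19). Ifnlr1 was at 3.92, 4.54 and 4.70 in Apc1322T and at 4.04, 4.66 and 4.10 in ApcMin adenomas, whereas Ifnar1 stayed between 5.74 and 5.97. For the interferon-gamma receptor the values were -0.10 (SE 0.09, Ifngr1) and -0.38 (SE 0.15, Ifngr2). Of the 28 receptor and signalling genes tested, 0 passed an adjusted p under 0.01, and 4 were lower (14.3%, against 7.60% of all tested genes) and 1 was higher (3.57%, against 7.49%) in ApcMin at an unadjusted p under 0.05. The largest differences among the signalling genes were those of Tlr7, a sensor of single-stranded RNA (0.79, SE 0.56), and Irf5 (0.56, SE 0.21). Apc1322T replicates 2 and 3 were the highest libraries for 11 of the 28 genes (39.3%, against 20.2% of all tested genes).

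Among 65 tested of 67 other genes induced by type I and III interferon, 0 passed an adjusted p under 0.01, and 8 were lower (12.3%, against 7.60% of all tested genes) and 6 higher (9.23%, against 7.49%) in ApcMin at an unadjusted p under 0.05. Apc1322T replicates 2 and 3 were on top for 35 of the 65 (53.8%, against 20.2%). The largest differences were those of Apol9a and Apol9b, apolipoprotein L genes, at -2.01 (SE 0.76) and -1.87 (SE 0.81). Both genes ordered the 6 libraries alike. Sequence shared between them was not counted, so that they may not be separate measurements. Apol9a had levels of 3.86, 6.17 and 6.03 in Apc1322T and of 2.94, 4.58 and 2.65 in ApcMin adenomas, an order like that of Ifit1, although Apc1322T replicate 1 lay below ApcMin replicate 2. The Ifitm genes, which encode membrane proteins that block viral entry, went the other way and are named after their values were seen. Ifitm1 was at 5.64, 5.52 and 5.31 in Apc1322T and at 6.46, 7.17 and 7.61 in ApcMin adenomas, without overlap. Its log2 fold change was 1.66 (SE 0.29, adjusted p = 0.257, edgeR), and those of Ifitm2 and Ifitm3 were 0.78 (SE 0.19) and 1.01 (SE 0.16). With DESeq2, 4 of the 126 genes of these pathway lists with an adjusted p passed 0.01 (3.17%, against 1.11% of all genes), all higher in ApcMin. They were Ifitm1 (4.6e-06), Ifitm3 (2.1e-05), the membrane protein gene Ly6e (0.00204) and the GTPase gene Iigp1 (0.00879).

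The genes induced by interferon-gamma divided into those that shared the order of the libraries and those that did not. Of 35 tested, 0 passed an adjusted p under 0.01, and at an unadjusted p under 0.05 there were 1 that was lower in ApcMin (2.86%, against 7.60% of all tested genes) and 8 that were higher (22.9%, against 7.49%). Apc1322T replicates 2 and 3 were on top for 16 of the 35 (45.7%, against 20.2%). These 16 included 12 of the 13 genes of class I antigen presentation on the list (B2m, H2-K1, H2-D1, H2-T23, Tap1, Tap2, Tapbp, Psmb8, Psmb9, Psmb10, Psme1 and Psme2), all with log2 fold changes below 0. The other, Nlrc5, which activates class I genes, was highest in ApcMin replicate 1 and had a log2 fold change of 0.80 (SE 0.38, adjusted p = 0.362). B2m, the light chain of class I molecules, had levels of 8.37, 9.79 and 9.84 in Apc1322T and of 9.12, 8.99 and 8.47 in ApcMin adenomas. By contrast, 0 of the 4 class II genes (H2-Ab1, H2-Aa, Cd74 and Ciita, the class II activator) had this order, and their log2 fold changes were between 0.87 and 1.19. Class I molecules are made by most cells and class II mainly by antigen-presenting cells. The division of the list by class was made after the values were seen. The largest differences on the list were those of the chemokine Cxcl9 (2.08, SE 0.67, adjusted p = 0.287) and the GTPase gene Tgtp2 (1.69, SE 0.62, adjusted p = 0.311). The estimated counts of Tgtp2 in ApcMin replicates 1, 2 and 3 were 44, 85 and 32, while those of Tgtp1 were 305, 12 and 288. Sequence shared by this pair was not counted, so that how their reads are divided, and the value of Tgtp2, are uncertain. Cxcl9 had levels of 0.04, 1.08 and 1.48 in Apc1322T and of 3.88, 1.58 and 2.71 in ApcMin adenomas, highest in the library where Gbp2 was highest.

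**Figure D5:**
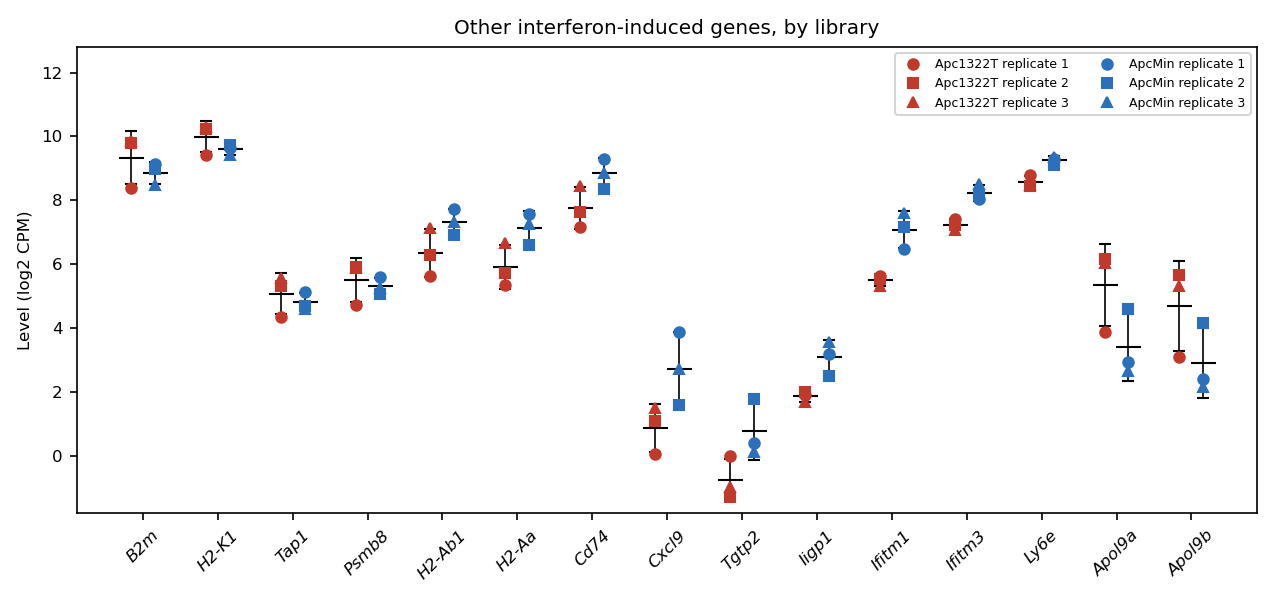
Level in log2 CPM of 15 other interferon-induced genes in each library, drawn as in the plot of the genes described in full, with the mean and SD of 3 libraries. B2m, H2-K1, Tap1 and Psmb8 of class I presentation and the Apol9 genes are highest in Apc1322T replicates 2 and 3, whereas class II genes, Cxcl9, Ifitm1, Ifitm3 and Ly6e are higher on average in ApcMin adenomas.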

How the data were processed

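RNA-seq of 6 adenoma libraries (3 Apc1322T, 3 ApcMin) was analysed. Salmon was used by the authors to assign single-end, stranded reads of 50 bases to transcripts of GRCm38. The deposited values are estimated counts, added up per gene and scaled neither for depth nor for length. Salmon divides reads that fit several transcripts, so that near-identical genes are uncertain.

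For the present purpose, the estimated counts were rounded, and symbols were matched to GENCODE M21 for 34582 of 34866 genes. Genes were kept with filterByExpr (minimum count 10, minimum total 15), normalised by TMM, and compared in edgeR 4.0.16 (R 4.3.3) by its quasi-likelihood test with robust estimation, with Benjamini-Hochberg adjustment over all tested genes at 0.01. DESeq2 1.42.0, the tool of the study, and limma-voom (limma 3.58.1) were alternatives, beside other normalizations, filters and prior counts, a replicate block and the omission of each library. The tests were checked on simulated counts in which 200 well-counted genes were changed, and edgeR recovered 93.5% of them. Those changes were larger than most differences of the group, so that the check does not show how often such differences would be found. Depth ranged from 23132461 to 33518324.

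The genes, role groups and lists were chosen with earlier results of these data known. Genes named are all 35 genes, with the most variable of each role group in full, every interferon receptor, the 2 genes of largest difference in each other list, and the 10 genes most like Ifit1 with a mean of at least 1 log2 CPM, of which 1 is not reported here. Others are said to be named after their values were seen. For the 35 genes alone, shared sequence was counted as windows of 50 bases of exons that occur in another gene of GENCODE M21. Replicate numbers do not pair the mice.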

Additional observations from a re-analysis of the deposited data

How the results depend on the processing

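The count of 0 genes of the group at an adjusted p under 0.01 was the same under every alternative run (other normalizations, filters and tests, each library left out, and the replicate block). The median log2 fold change stayed below 0 in all of them, from -0.98 to -0.46 with a library left out and -0.64 with the replicate block, which could not be taken as a paired design since same-numbered libraries come from different mice and their deviations correlated at -0.014, 0.164 and -0.286. The number of genes without overlap ranged from 3 to 31 with a library left out, where 31 was reached without Apc1322T replicate 1, 11 without ApcMin replicate 2 and 5 without Apc1322T replicate 2. The genes highest in Apc1322T replicate 3 numbered 19 to 29 with a library left out, 29 without Apc1322T replicate 2. Other pathway genes at an adjusted p under 0.01 numbered 4 with DESeq2's Wald test and 0 under the other alternatives run, and the cause was not tested. With the longer motif GAAANNGAAACT or its reverse complement, 35.5% of the windows of the group held a match, against 0.271% of all windows, a subset of the matches to the shorter motif. Leaving out a library leaves 2 of its genotype, and of all tested genes 47.7% were then without overlap when Apc1322T replicate 1 was omitted and at most 31.9% when another library was, against 21.0% with all 6 libraries.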
